A study of Mus musculus with 18 samples.

Results

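Pericytes and smooth muscle cells, the mural cells that wrap small and larger blood vessels, were studied in the stroma of murine bone marrow (BM) before birth, at birth and in the adult. They were chosen by their UMI counts, as the stromal cells with at least 3 UMIs (unique molecular identifiers, each standing for 1 captured mRNA molecule) of Rgs5, a regulator of G protein signalling used as a pericyte marker, and at least 1 UMI of Notch3, the Notch receptor of mural cells. This rule found 584 of 35219 stromal cells, and 0 of 20982 hematopoietic progenitor (HP) cells, among the 56201 cells of the series. There were 120, 96, 216 and 152 of them in the E16.5, E18.5, P0 and adult libraries, and every set of 4 values follows that order. Since counts of Rgs5 and Notch3 chose the cells, levels in these cells against the remaining stromal cells are descriptions throughout, with no test.

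The study profiled C57B6/J mice by single-cell RNA-seq with antibody tags (CITE-seq), in hematopoietic and in stromal cells. Stroma was the CD45-Ter119- fraction sorted by flow cytometry, so cells with the blood surface marker CD45 or the erythroid marker Ter119 were removed by the gate. Fetal BM (FBM, E16.5 and E18.5) and P0 BM came from the digested skeleton without the head bones and adult BM from tibias, femurs, pelvis and spines, with the animals of a stage pooled. The labels give no allele or treatment beyond the strain, and 1 stromal library per stage was available, so no difference between stages has a replicate check and the animals and bones sampled cannot be told apart from age.

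Mural cells contract or relax to set vessel width and blood flow, share a basement membrane with the endothelium, and are recruited and kept in place by PDGF-B acting on the receptor Pdgfrb and by Notch ligands acting on Notch3. Smooth muscle cells of arteries carry a cytoskeleton of smooth muscle actin (Acta2), myosin heavy chain (Myh11) and the proteins that regulate them, whereas capillary pericytes hold less of it and carry the ATP-sensitive potassium channel of Kcnj8 and Abcc9. In BM, perivascular stromal cells are also known as a source of factors that retain and feed hematopoietic stem cells, such as Cxcl12 and Kitl.

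The stromal libraries held 116922277, 112468283, 194892476 and 91868751 UMIs, of which 1769292, 1586120, 3326376 and 1557890 fell in the mural cells. Levels are given as CPM, the UMIs of a gene per 1000000 summed UMIs of a group of cells, and a gene was called higher or lower where the CPM ratio was at least 2 or at most 0.5, the exact 95% interval of the ratio left out 1, and both groups together held at least 50 UMIs. These intervals, and those of shares of cells, cover counting error only. The median UMIs per cell were 13631, 14989, 14258.5 and 7701 in mural cells against 12884.5, 15649, 13599.5 and 11948 in the other stromal cells, so adult mural cells were the shallowest group. Mitochondrial transcripts took a median of 3.58%, 4.47%, 5.26% and 5.49% of the UMIs of mural cells and 2.90%, 3.78%, 4.04% and 3.54% of those of the other cells. Of the 584 cells, 6 carried a barcode also seen in another stromal library, 11 one seen in any other library, and 0 shared one with another mural cell.

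Mural cells made up 1.46% of the stroma at E16.5 (95% Clopper-Pearson interval 1.21 to 1.74), 1.45% at E18.5 (1.17 to 1.76), 1.53% at P0 (1.34 to 1.75) and 2.43% in the adult (2.06 to 2.84). The adult interval lay above the other 3, which overlapped each other. Because a rule on UMIs depends on depth, every cell was also thinned to 3000 UMIs, which gave 0.332%, 0.790%, 1.04% and 1.60%. These thinned shares also rest on the levels of the selecting genes, since after thinning Notch3 was found in only 44.2%, 63.5%, 62.9% and 81.4% of mural cells. A difference in the share therefore cannot be told apart from a difference in the level of Rgs5 or Notch3 per cell. Without the requirement for Notch3 the adult share was 3.54%.

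**Figure D1:**
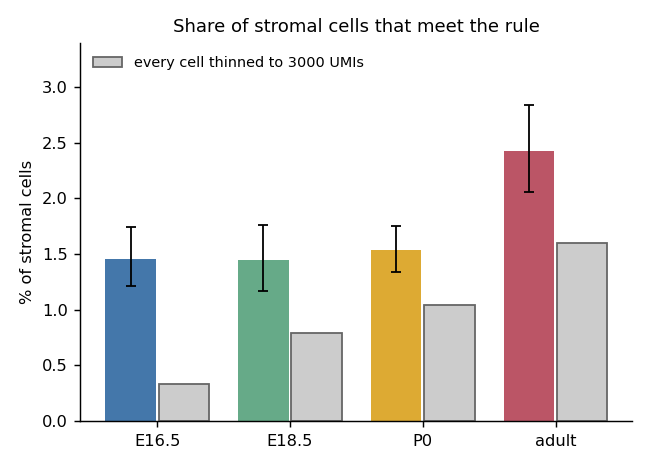
Share of stromal cells that met the rule for mural cells (vertical axis, percent) at each stage (horizontal axis), from all UMIs with 95% Clopper-Pearson intervals as error bars, and from cells thinned to 3000 UMIs (grey bars). The adult bar, 2.43%, stands above the other 3, and the thinned bars go from 0.332% at E16.5 to 1.60% in the adult.

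The deposited annotation gives codes per stage, and most mural cells carried 1 code at each stage. At E16.5 this was F4, with 119 of 120 cells (99.2%). At E18.5 it was P2, with 94 of 96 (97.9%), and at P0 a code of the same name, with 193 of 216 (89.4%). Adult cells mostly carried P4, with 129 of 152 (84.9%). The only other code with more than 7 mural cells was F7 at P0, with 21. The adult remainder was spread over CARs (7 cells), AECs (3), F9 (3), C10, F10, F8 and SECs (2 each), and C9 and Osteo (1 each). The strays of the earlier stages were 1 cell each in F3 (E16.5), P1 and C6 (E18.5), and ECs and P3 (P0). A code beginning with P did not in itself mark mural cells, since P-2 and P1i (E16.5), P1 (E18.5), P3 (P0) and the adult codes P1 and P5 held skeletal muscle genes among their leading genes, such as Myf5 and Pax7 in P1i and adult P1, Myod1 and Myog in P1 at E18.5 and P3, Myh3 in P-2 and Ckm in P5, and held at most 1 mural cell each.

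The 4 main codes were larger than the sets of mural cells. F4 at E16.5 held 290 cells, of which 171 missed the rule, 131 of them with no UMI of Rgs5. Those 171 held Acta2 at 801 CPM against 1984 in the mural cells of F4, and the fibroblast proteoglycan Dcn at 1164 CPM against 225. In the 30 cells of P2 at E18.5 that missed it, Tagln was at 3227 CPM against 2105, Myh11 at 504 against 451, Acta2 at 4382 against 4449 and Eln at 3087 against 372. At P0 and in the adult, the cells of the code that missed the rule were richer in contractile genes than the mural cells. In P2 at P0, 53 cells outside the rule had Acta2 at 9683 CPM against 4047, Myh11 at 1368 against 306, the elastic fibre protein Eln at 7967 against 571 and Kcnj8 at 93.2 against 283. In adult P4, 41 such cells had Acta2 at 13582 CPM against 7235 and Kcnj8 at 59.2 against 249.5, while Eln was 345 against 440.

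A rule on Rgs5 thus left out part of the contractile cells. As a count chosen after the values were seen, 33, 46, 93 and 124 stromal cells held at least 3 UMIs of Myh11 and 10 of Acta2, and 23, 37, 68 and 88 of these met the rule. The 10, 9, 25 and 36 that did not had a median of 0, 1, 1 and 0 UMIs of Rgs5, against 15, 33, 27.5 and 29 in the contractile cells that did. Their Eln level was 6953, 7071, 9331 and 348 CPM, high before the adult stage and low in it.

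Just outside the rule, with 2 UMIs of Rgs5 and a UMI of Notch3, lay 12, 4, 11 and 8 cells, whose contractile genes summed to 5875, 16831, 17246 and 19065 CPM. Just inside it, with 3 UMIs of Rgs5, lay 8, 1, 7 and 7 cells at 14494, 2443, 24838 and 52191 CPM. The 26, 8, 46 and 70 cells with enough Rgs5 but no Notch3 stood at 5946, 4589, 5075 and 844 CPM, so in the adult these were mostly cells with little contractile RNA.

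Rgs5 itself had a median of 14.5, 27.5, 29 and 34 UMIs per mural cell and a highest value of 82, 112, 123 and 426. Notch3 had a median of 3, 5.5, 4 and 5.5 UMIs. Acta2, which the rule did not use, was detected in 75.8%, 88.5%, 88.4% and 82.2% of mural cells and in 14.3%, 12.7%, 19.1% and 18.1% of the other stromal cells, so this remaining marker of the label was present at every stage. With all cells thinned to 3000 UMIs, Acta2 was found in 51.7%, 78.1%, 77.9% and 77.9% of mural cells and in 4.48%, 0%, 3.87% and 2.97% of endothelial cells (at least 2 UMIs of Cdh5 and 1 of Pecam1), which should lack it and whose unthinned median depth was 10914, 11169, 11629 and 5926 UMIs. The 0 of 76 endothelial cells at E18.5 allow a share of up to 3.95%, taking 3 counts as the limit of a count of 0 here and below. Acta2 was not limited to mural cells, since after thinning it was also found in 55.4%, 77.2%, 76.9% and 58.4% of skeletal muscle cells. These had at least 1 UMI of Cdh15 and 1 of Myod1, Myf5, Myog or Pax7, and Myh11 was found in at most 0.338% of them.

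Against the other stromal cells, the call rule found 9.24%, 12.1%, 11.5% and 9.3% of the 14242, 13990, 15194 and 14069 genes tested higher in mural cells, and 9.38%, 9.72%, 9.19% and 6.95% lower. In all 4 libraries 525 of 13079 genes (4.01%) were higher and 383 (2.93%) lower.

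Most genes of the contractile apparatus were higher in mural cells. Of the contractile genes tested, 18 of 20, 17 of 19, 18 of 19 and 19 of 20 were higher in mural cells, with a median CPM ratio of 19.4, 44.3, 19 and 19.7, beside 0.971, 1.04, 1.05 and 1.07 over all genes. Acta2 was at 1963, 4340, 3619 and 5648 CPM, which was 28.2, 89.4, 37.1 and 43.5 times its level in the other stromal cells. Myh11, the motor of smooth muscle, was at 175, 441, 269 and 1243 CPM and 149, 217, 54.7 and 83.7 times the other cells. Both genes were lowest at E16.5, and Myh11 was far higher in the adult than at any other stage.

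Proteins that tune the contractile filaments were also higher in mural cells, with more varied courses over the stages. Tagln, an actin-binding protein, was at 1174, 2043, 1722 and 4837 CPM, with ratios of 26.8, 66.1, 29.4 and 42.9. Lmod1, an actin nucleator of smooth muscle, was at 46.9, 95.8, 69.4 and 311 CPM, and Cnn1, an inhibitor of actomyosin, at 38.4, 51.7, 38.5 and 82.8 CPM. Myocd, the coactivator of serum response factor that switches on these genes, was low in absolute terms, at 15.8, 17, 14.4 and 23.1 CPM, yet 46.7, 75.5, 31.4 and 38.6 times the other cells. Actg2, the actin of visceral smooth muscle, was at 126, 234, 143 and 91.1 CPM and the only one of these genes whose lowest level was in the adult. Smtn, a cytoskeletal protein of contractile cells, was not called in any library, with ratios of 1.7, 1.56, 1.45 and 1.83.

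The light chain gene Myl9, which encodes the regulatory light chain of smooth muscle myosin, was at 763, 1461, 1255 and 2972 CPM, or 24.6, 55.6, 30.6 and 44.6 times the other cells. Its promoter is printed because it was the only one of the 16 contractile genes with a promoter in the RefSeq table to hold the CArG box (CC, then 6 letters of A or T, then GG), the motif bound by serum response factor, within 250 bases before the start. The stretch lies at chr2:156775258-156775357 on the plus strand of GRCm38.p6 (RefSeq), and the capitals mark the motif, from 161 to 152 bases before the start.

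Myl9: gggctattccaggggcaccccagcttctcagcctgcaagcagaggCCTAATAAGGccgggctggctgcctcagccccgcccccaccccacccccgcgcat

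The motif reads alike in its pattern on both strands. It was present in 439 of 27025 promoters of the RefSeq table (1.62%), in 1 of the 16 contractile genes with an entry (6.25%) and in 0 of 14 pericyte genes. A window of this length does not hold elements further away, and nothing follows from the missing matches.

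Of the pericyte list, 18, 18, 19 and 15 of the 20 tested genes were higher, with a median ratio of 11.6, 19.95, 18.1 and 17.5. Kcnj8, the pore of the ATP-sensitive potassium channel of vessels, was at 210, 222, 257 and 222 CPM, or 50.8, 107, 70.1 and 32 times the other stromal cells. Abcc9, its regulatory subunit, was at 210, 330, 375 and 197 CPM. Neither differed by 2-fold between the adult and P0. Higd1b, a hypoxia-inducible domain protein used as a pericyte marker, was the most particular of them in numbers, at 132, 327, 422 and 258 CPM against 0.269, 0.262, 0.981 and 0.332 in the other cells.

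Receptors and enzymes of the list varied more. Pdgfrb, the receptor that recruits mural cells, was at 253, 302, 313 and 407 CPM and 13.1, 13.9, 10.6 and 6.56 times the other cells. The subunits of soluble guanylate cyclase, the nitric oxide receptor, were Gucy1a1, at 351, 434, 406 and 391 CPM, and Gucy1b1, at 175, 245, 185 and 201 CPM. Cspg4, the proteoglycan NG2 that is often used to mark pericytes, was at 91.6, 129, 101 and 190 CPM but not called in any library, since its ratios were 0.654, 0.566, 0.534 and 0.967. Cells with at least 10 UMIs of the cartilage collagen Col2a1 and any of Col9a1 were taken as chondrocytes. From E16.5 to P0 most stromal cells met this cut. It is loose, since Col2a1 was also found in most mural and endothelial cells, as given below. It can therefore take in cells of other types and does not give the share of chondrocytes. The cells that met it held Cspg4 at 216, 245, 198 and 299.6 CPM, more than the mural cells of each library.

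Endothelial cells shared part of the pericyte list. In the adult they held Kcnj8 at 107 CPM and Abcc9 at 133 CPM, so the mural cells stood 2.08 and 1.49 times above them. With cells thinned to 3000 UMIs, Kcnj8 was found in 44.2%, 37.5%, 48.8% and 34.5% of mural cells, in 0.136%, 0%, 0.338% and 0% of skeletal muscle cells (unthinned median depth 16046, 15338, 16733 and 6978 UMIs) and in 17.0% of adult endothelial cells. The 0 of 237 muscle cells at E18.5 and of 101 in the adult allow shares of up to 1.27% and 2.97%.

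**Figure D2:**
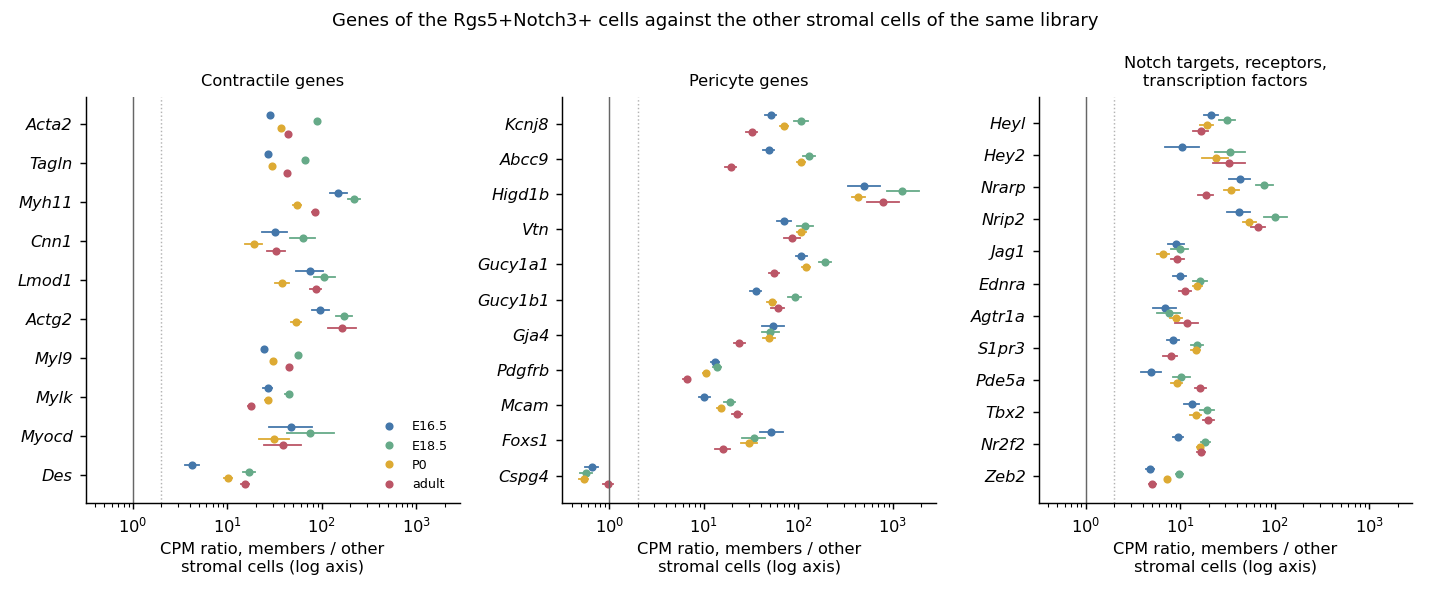
CPM ratio of mural cells to other stromal cells (log axis) for contractile genes, pericyte genes, and genes of Notch signalling, vessel tone and transcription, with a colour per stage, 95% intervals as lines, a solid line at 1 and a dotted line at 2. Most points lie above 10, Higd1b lies at 430 or more at all stages, and Cspg4 lies below 1.

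Of the Notch genes tested, 8 of 15, 8 of 16, 9 of 16 and 7 of 16 were higher, with a median ratio of 2.04, 2.34, 2.52 and 1.71. Heyl, a repressor switched on by Notch3, was at 104, 95.8, 63.1 and 96.3 CPM, which was 21, 30.9, 19.1 and 16.4 times the other cells. Nrarp, a feedback inhibitor of the pathway, was at 58.8, 121, 61.6 and 100 CPM, with ratios of 42.3, 77.1, 34.6 and 18.6. The ligand Jag1 was at 67.8, 71.2, 59.8 and 135 CPM, or 9.03, 9.84, 6.58 and 9.34 times the other cells. In endothelial cells it was at 9.44, 99.3, 62.8 and 53.4 CPM, above the mural level at E18.5 and P0. Skeletal muscle cells also carried Notch3, at 39.5, 69.5, 58.1 and 159 CPM, well below the mural cells, for which 240, 340, 361 and 595 CPM follow from the rule.

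Receptors and channels that set vessel tone were higher in 12 of 19, 12 of 19, 16 of 22 and 14 of 20 cases, with a median ratio of 3.06, 4.53, 4.51 and 7.64. Ednra, the endothelin receptor of smooth muscle, was steady at 107, 107, 121 and 143 CPM. Ednrb, the second endothelin receptor, was not, with 5.09, 15.1, 36.7 and 53.9 CPM in mural cells and 26, 12.3, 15.2 and 5.29 CPM in the others, so that it was called lower at E16.5 and higher in the P0 and adult libraries. Pde5a, the enzyme that breaks down cyclic GMP, was at 41.3, 66.2, 81.8 and 164 CPM, and the sphingosine-1-phosphate receptor S1pr3 at 118, 141, 115 and 101 CPM. Olfr558, an olfactory receptor gene that is also expressed in vascular smooth muscle, was at 59.9, 98.4, 99.2 and 173 CPM and 141, 280, 238 and 220 times the other cells. It was among the 15 genes with the highest ratio in the library where that ratio was lowest.

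Among transcription factors 11, 14, 13 and 12 of 33 were higher in mural cells and 2, 3, 1 and 4 lower. Tbx2, a T-box repressor, was at 74.6, 98.4, 88.1 and 171 CPM, and its ratios of 13.2, 19.2, 14.5 and 19.8 lay close together. Nr2f2, which sets venous identity in endothelium and is also found in mural cells, was at 174, 256, 271 and 411 CPM with ratios of 9.54, 18.4, 16 and 16.6. Ebf1, a factor shared with B cells and reticular stroma, was at 678, 727, 847 and 783 CPM and 5.07, 5.82, 5.85 and 3.24 times the other cells. Tcf15, a basic helix-loop-helix factor, was at 85.9, 83.9, 95.6 and 55.8 CPM, with a ratio of about 30 at E18.5 and P0 (31 and 30.5) and of 4.71 in the adult, which was 1.76 and not called as a mean of per-cell CPM.

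Matrix genes split by kind when set against the other stroma. Of the basement membrane genes tested, 9 of 19, 12 of 19, 11 of 20 and 12 of 21 were higher, with a median ratio of 1.85, 2.91, 2.21 and 2.90. Col4a1, a chain of the network collagen of basement membranes, was at 1141, 1945, 1972 and 1161 CPM, or 6.47, 10.9, 8.22 and 4.74 times the other cells. Endothelial cells held more of it in every library, at 1301, 2953, 2292 and 1557 CPM. The laminin receptor subunit Itga7 was at 39.6, 105, 78.8 and 118 CPM, or 8.92, 40, 18.8 and 39.2 times them. In contrast, of the 24 fibrillar and elastic matrix genes 5, 11, 6 and 7 were lower and 2, 0, 2 and 1 higher. Col1a1, the main fibrillar collagen chain, was at 766, 1236, 1520 and 2426 CPM, which was 0.413, 0.4, 0.369 and 0.376 times the other cells. In summed level the fibrillar and elastic genes, at 8655, 9722, 14721 and 22711 CPM, still exceeded the basement membrane genes, at 3517, 5911, 6204 and 6902 CPM, within mural cells. Pdgfra, the PDGF receptor of fibroblasts, was at 18.1, 10.1, 22.5 and 24.4 CPM and lower in each library, with ratios from 0.179 to 0.329.

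Eln was held by few cells, as the 1 in 20 mural cells with most of it carried 67.1%, 67.7%, 67.8% and 57.7% of its UMIs. At P0 these lay partly in the 21 mural cells coded F7, in which Eln was at 5535 CPM against 571 in the P2-coded mural cells. Fbln5, an elastic fibre protein, was at 1142 against 54.4 CPM there, Mfap4 at 1455 against 66.1, the transcription factor Gata6 at 218 against 8.61, and Col1a1 at 7651 against 716. Their Acta2 was 664 against 4047 CPM and their Higd1b 28.9 against 478. Myh11 had only 3 UMIs in the F7-coded cells, a ratio of 0.0258 with an interval from 0.00530 to 0.0755. The F7-coded cells were thus rich in elastic fibre and fibroblast genes and poor in both the contractile and the pericyte genes. Adult mural cells outside P4 were mixed instead, with Cxcl12 at 4308 against 503 CPM, the adipocyte hormone Adipoq at 500.3 against 13.8, the cartilage collagen Col2a1 at 23909 against 3247, and Acta2 at 1051 against 7235.

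Of the genes for factors that act on hematopoietic cells, 6 of 16, 6 of 16, 6 of 17 and 4 of 18 were higher and 3, 4, 4 and 4 lower, among the latter Spp1 and Bmp4 in every library. The list as a whole summed to 1291, 969.7, 1430.4 and 2793 CPM in mural cells against 1575, 1014, 1437 and 4175 in the other stroma. The sum was thus no higher in mural cells. In the adult, the 129 P4-coded mural cells were at 1673 CPM and the 23 outside P4 at 6039 CPM. Kitl, the stem cell factor, was at 50.3, 97.7, 165 and 246 CPM, or 2.58, 4.38, 10.5 and 4.57 times the other stromal cells. Cxcl12, the chemokine that retains stem cells in BM, was at 163, 149, 226 and 1479 CPM, higher than in the other cells by 3.53, 3.68 and 4.36 times in the first 3 libraries, and not called in the adult (1.69). The adult level was set by few cells, as the 23 mural cells outside P4 held 1722 of its 2304 UMIs. In the 129 P4-coded mural cells Cxcl12 was at 503 CPM, below the 875 CPM of the other stroma, so the direction turned. Endothelial cells held Kitl at 217, 318, 295 and 251 CPM, at or above the mural level in each library. They held Cxcl12 at 33.04, 877, 515 and 1084 CPM, more than mural cells at E18.5 and P0 and less at E16.5, while the adult value lay below that of all mural cells and above that of the P4-coded ones. CAR cells, the reticular cells of adult BM, were here taken as cells with at least 10 UMIs of Cxcl12 and any of Lepr. They held Pdgfrb at 341 CPM in the adult, against 407 CPM in mural cells. They held more Kitl than mural cells there, at 817 against 246 CPM, and more Il34, at 247 against 180 CPM. Il34, a ligand of the macrophage receptor Csf1r, was at 15.8, 32.8, 45.4 and 180 CPM and 56.9, 74.2, 40.1 and 8.49 times the other cells. Nes, an intermediate filament gene used to mark perivascular cells, was at 58.2, 115, 86.9 and 112 CPM. It was not particular to mural cells, with 68.4, 114, 53.8 and 131 CPM in endothelial cells and 128, 125, 74.0 and 11.8 CPM in skeletal muscle cells. Angpt2, which loosens the contact of endothelium and pericytes, was at 28.3, 34, 54.4 and 62.9 CPM in mural cells.

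Markers of other cell types were present in mural cells, some at high levels. Chondrocyte markers summed to 2742, 9605, 8461 and 14334 CPM in mural cells against 25839, 61142, 50712 and 39224 in the other stroma, and all 12 were lower in each library. They were at the same time the largest of these sums in mural cells, with Col2a1 alone at 1272, 5563, 4874 and 8549 CPM. The adult chondrocyte sum was set by the 23 mural cells outside P4, at 40711 CPM. The P4-coded cells were at 5229 CPM, below the 9221 CPM of the P2-coded mural cells at P0. Col2a1 was found in 93.3%, 100%, 100% and 68.4% of mural cells and in 85.3%, 100%, 100% and 75.7% of endothelial cells. Fibroblast markers summed to 648, 570, 1161 and 3815 CPM against 1646, 2204, 2824 and 14954, and of the 12 tested 6, 10, 8 and 9 were lower. Tendon markers summed to 213, 755, 749 and 4541 CPM against 1616, 3651, 3923 and 13021, and osteoblast markers to 46.9, 75.03, 97.4 and 1198 CPM against 241, 406, 518 and 5264. The adult osteoblast sum was 505 CPM in the P4-coded mural cells and 3204 CPM in the 23 outside P4. Markers of CAR cells were higher in mural cells instead, at 365, 477, 694 and 3084 CPM against 206, 233, 291 and 1868 in the other stroma, with Cxcl12 and Kitl among the genes. In the adult this rested on the 23 cells outside P4, which were at 8132 CPM, since the P4-coded mural cells were at 1342 CPM, below the other stroma. Schwann cell and neural crest markers, a list that holds Ednrb, were at 18.1, 27.7, 55.9 and 71.3 CPM against 101, 67.3, 108 and 40.6. Skeletal muscle markers were at 70.6, 168, 69.4 and 19.3 CPM against 521, 226, 291 and 107. The E18.5 muscle sum was set by the 2 mural cells outside P2, which held 177 of its UMIs. The 94 P2-coded mural cells were at 57.9 CPM. Among the defining endothelial genes, Pecam1 was at 1.13, 0.63, 5.41 and 53.3 CPM and Cdh5 at 2.26, 0.63, 3.31 and 35.9 CPM, and the endothelial list as a whole summed to 143, 160, 180 and 610 CPM against 60.8, 84.5, 111 and 527.5. In the adult P4-coded mural cells the endothelial list summed to 283 CPM, also below the other stroma. Blood markers were near 0 before the adult stage, at 7.35, 2.52 and 4.21 CPM, and at 719 CPM in the adult, where 1 cell held 88% of the UMIs of the hemoglobin gene Hbb-bs, and Ptprc, which encodes CD45, had no UMI at any stage. In all, 13, 5, 17 and 19 mural cells carried at least 2 UMIs of 6 endothelial or 4 blood genes, and may hold RNA of a second cell. The part of other cells' RNA in the stage differences of collagens and of CAR, tendon, endothelial and blood genes was not tested.

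Mural cells differed widely among themselves in contractile genes. Acta2 ranged from 0 UMIs to a highest value of 253, 363, 353 and 419 UMIs in 1 cell, with a median of 5, 36.5, 22.5 and 32, and cells lay at all levels in between. Myh11 was seen in 30.8%, 49.0%, 49.5% and 82.2% of mural cells, so that most cells lacked a UMI before the adult stage and few in the adult. Kcnj8 was seen in 77.5%, 75%, 81.0% and 48.0%. After thinning to 3000 UMIs, Myh11 was found in 20.8%, 33.3%, 31.0% and 74.5% of the cells, which kept the adult share highest. For Kcnj8 the adult thinned share of 34.5% (26.8 to 42.8) overlapped the 44.2% (35.1 to 53.5) of E16.5 and the 37.5% (27.8 to 48.0) of E18.5. The thinned share of P0 given above was the highest and lay furthest from the adult one. These overlaps therefore do not show that the adult was like all other stages.

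**Figure D3:**
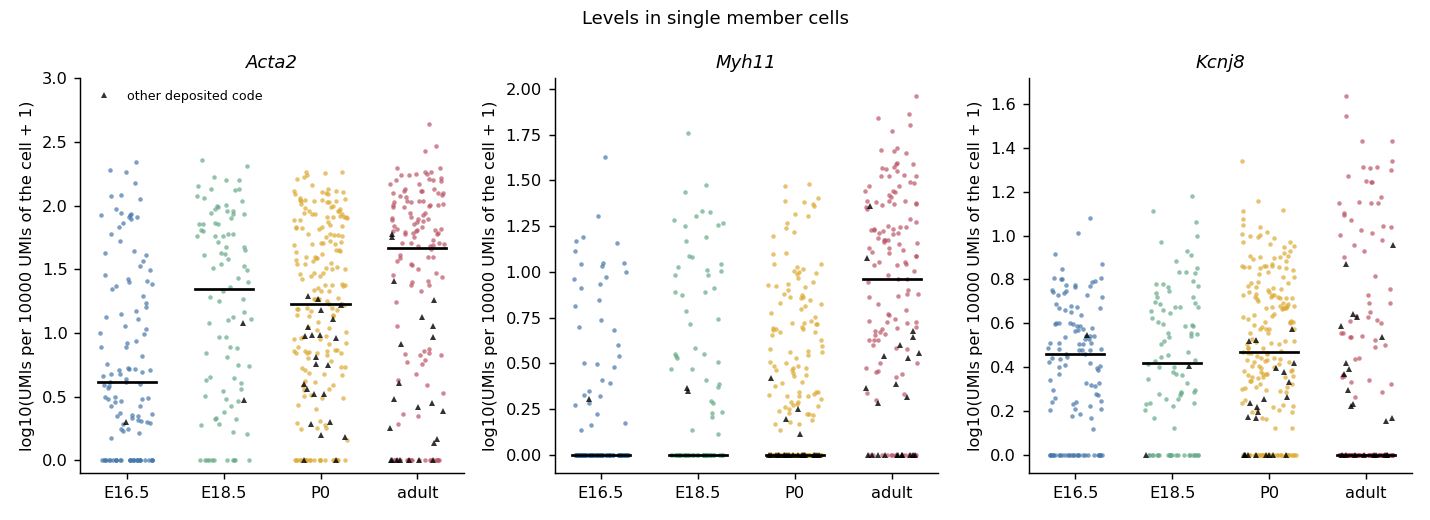
Acta2, Myh11 and Kcnj8 in each mural cell, as log10 of UMIs per 10000 UMIs of the cell plus 1 (vertical axis), by stage (horizontal axis), with circles for cells of the main deposited code, black triangles for cells of other codes and a bar at the median. The median of Myh11 lies at 0 until P0 and above it only in the adult, while that of Kcnj8 lies at 0 only in the adult.

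To compare the contractile and the remaining mural cells, the cells of each library were split by Acta2 per UMI into 3 equal groups, and the group with the most was set against the group with the least (40, 32, 72 and 50 cells each). The high cells had at least 11, 58, 33 and 36 UMIs of Acta2 and the low cells at most 2, 7, 17 and 9, with median depths of 13212.5, 15714, 13743 and 8228 UMIs against 13631, 13515, 13654 and 6404.5. Over all genes tested, 4.9%, 5.58%, 4.38% and 8.31% were higher in the Acta2-high cells and 3.07%, 3.82%, 5.11% and 9.69% lower. In all 4 libraries 50 of 2096 genes (2.39%) were higher and 9 (0.429%) lower. Of the contractile genes besides Acta2, 11 of 13, 13 of 14, 14 of 17 and 15 of 17 were higher, and of the pericyte genes 4 of 14, 5 of 14, 4 of 17 and 3 of 16 were lower. All high cells carried the main code, as did 39, 31, 59 and 35 of the low cells.

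The contractile genes were higher together with Acta2. Tagln was at 3583, 4992, 4434 and 11289 CPM in the high cells and 24.2, 98.2, 178 and 252 CPM in the low cells, ratios of 148, 50.8, 25 and 44.8. Myh11 was at 530, 1187, 673 and 2913 CPM against 10.4, 17.5, 24.5 and 223 CPM. Nrip2, which encodes a nuclear receptor interacting protein, was 9.43, 13.2, 11.1 and 9.21 times as high in the Acta2-high cells, and Nexn, an actin filament protein, 13.0, 9.36, 7.17 and 9.49 times. Jag1 was called higher in the first 3 libraries (3.53, 2.11 and 2.23) and not in the adult (1.77), but with 2 equal groups it was not called at P0 (1.69). After thinning to 3000 UMIs it was called in none of these 3 libraries (2.17, 1.71 and 2.75). The values of 2.17 and 2.75 lay past the fold and missed the UMI minimum or the interval.

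The low cells carried more of the pericyte channel. They also included, mainly at P0 and in the adult, cells outside the main code. Such cells were richer in fibroblast genes at P0 and in cartilage and CAR genes in the adult, as given above. Abcc9 was at 123, 170, 181 and 54.8 CPM in the high cells and 290.0, 489, 524 and 502 CPM in the low cells, ratios of 0.424, 0.347, 0.346 and 0.109, though not called at E16.5 and P0 when the cells were split into 2 equal groups (0.576 and 0.513). Kcnj8 had ratios of 0.42, 0.42, 0.601 and 0.112 and was called lower in all but P0. Cygb, the globin of pericytes and stellate cells, was at 38, 47.9, 56.7 and 263 CPM against 186, 314, 281 and 1006 CPM, the ratio staying between 0.153 and 0.261. Higd1b was lower at E16.5 and E18.5 (0.327 and 0.248) and not called later (0.621 and 0.543). In the adult the channel genes thus differed more between high and low cells than at the other stages, though the difference between stages was not tested.

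Not all mural genes took part. Notch3 had ratios of 1.38, 1.15, 1.18 and 1.16 and Pdgfrb of 0.518, 0.577, 0.551 and 0.618, and neither was called. Rgs5, which the choice of cells used, was alike in both groups before the adult stage (1.23, 1.02 and 0.958) and at 3853 against 8680 CPM in the adult (0.444, and 0.596 without the cells that carried endothelial or blood RNA). Rgs4, a close relative of Rgs5, was lower in the high cells at P0 (0.466) and higher in the adult (2.08), and had too few UMIs at E16.5 and E18.5. Neither call of Rgs4 held with 2 equal groups (0.578 and 1.96).

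**Figure D4:**
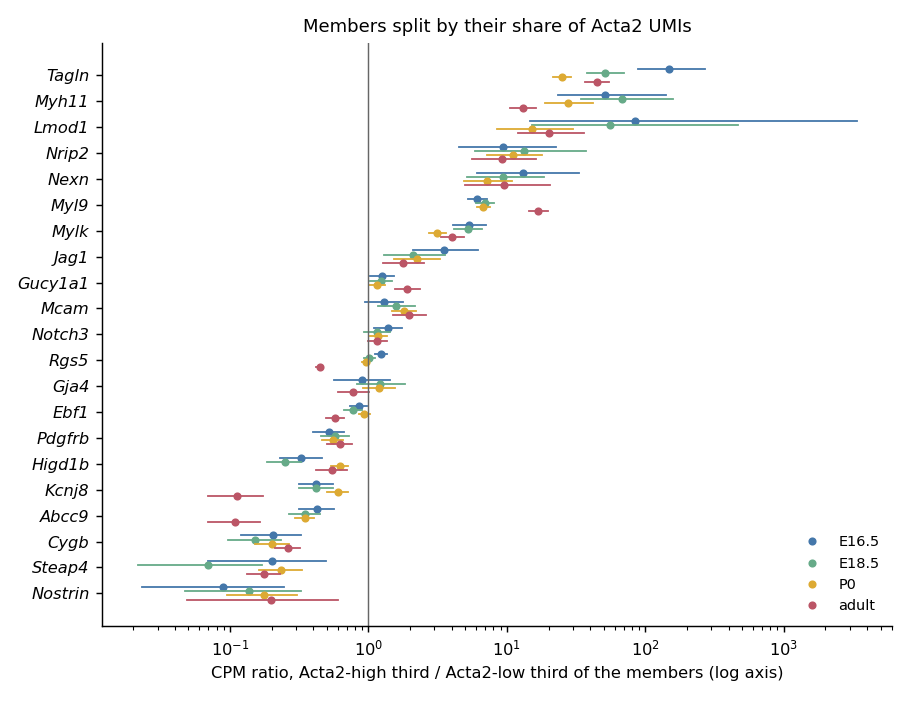
CPM ratio of the Acta2-high to the Acta2-low group of mural cells (the upper and lower of 3 equal groups) (log axis) for 21 genes, with a colour per stage and 95% intervals as lines. Contractile genes lie to the right of 1, with Tagln between 25 and 148, and Abcc9 and Cygb to the left of it at every stage.

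Between E16.5 and E18.5, 204 of 6631 genes (3.08%) were higher at E18.5 in mural cells and 70 (1.06%) lower. Of the 18 contractile genes tested, Acta2, Myh11, Lmod1 and Csrp1 were higher, with a median ratio of 1.81 over the list. Acta2 was 2.21 times and Myh11 2.53 times its E16.5 level. The calls of Acta2 and Lmod1 were marginal, since Acta2 was at 1.95 as a mean of per-cell CPM and Lmod1 at 1.72 to 1.95 under 4 alternatives. In the other stromal cells 0 of 20 contractile genes were higher and 3 lower, where 2.52% of all genes tested were higher and 4.38% lower. Casq2, the calcium store protein of the sarcoplasmic reticulum, went from 37.3 to 145 CPM, a ratio of 3.89 (2.94 to 5.19), against 0.670 in the other cells. Higd1b was 2.48 times higher at E18.5. Col2a1 was 4.37 times higher in mural cells, and 2.85 times in the other stromal cells.

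Between E18.5 and P0, 184 of 8040 genes (2.29%) were higher at P0 and 170 (2.11%) lower. The contractile and pericyte lists were nearly still, with 1 of 19 (Itga8) and 0 of 19 genes higher, and Itga8 was no longer called under 3 alternatives (1.40 to 1.93). Of the 18 cell cycle genes 12 were lower at P0, with a median ratio of 0.461. Mki67, a marker of dividing cells, was at 103, 174, 66.1 and 12.2 CPM over the 4 stages, and Top2a, which untangles chromosomes, at 255, 265, 103 and 16.7 CPM. Cell cycle genes summed to 1677, 1795, 779.5 and 204 CPM in mural cells and to 819.5, 835, 566 and 338 CPM in the other stroma, so that the sum in mural cells was above the rest until P0 and below it in the adult. In the other stroma 1 of 18 was lower at P0, where 3.7% of all genes tested were higher and 0.658% lower. Fbln5 (11.9 times), Dpt (6.20 times) and Eln (3.35 times) were higher at P0, and all 3 were higher in the F7-coded than in the P2-coded cells at P0 (Dpt 572 against 42.7 CPM). Within the main code alone, Eln was not called at P0 (1.53).

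The step from P0 to the adult was the largest, with 1219 of 8325 genes (14.6%) higher in the adult and 534 (6.41%) lower. The median log2 ratio of all genes was 0.19, and when this shift was taken out 868 genes were higher and 727 lower, which moved the higher share of calls from 69.5% to 54.4%. Of the 20 contractile genes 9 were higher in the adult, with a median ratio of 1.82 beside 1.14 over all genes. Myh11 was 4.63 times its P0 level (4.27 to 5.01), Tagln 2.81 times (2.71 to 2.91) and Cnn1 2.15 times (1.67 to 2.77), while Acta2 was not called, at 1.56 (1.52 to 1.60). The call of Cnn1 was marginal, at 1.77 to 1.88 under 3 alternatives. Pln, the phospholamban that restrains the calcium pump of the sarcoplasmic reticulum, had no UMI in mural cells until P0 and 250 UMIs in 39 of 152 adult cells, at least 178-fold higher with 3 UMIs standing for 0 at P0. In the other stromal cells Pln was 14.8 times higher in the adult, and 6 of 20 contractile genes were higher, where 18.1% of all genes tested were higher and 10.9% lower.

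Of the 19 pericyte genes tested, 3 were higher in the adult. This share is near the 14.6% of all genes tested, so the count does not set the list apart. Rgs4, which limits signalling through G proteins, was at 32.8, 45.4, 35.8 and 385 CPM, an adult ratio of 10.8 (8.83 to 13.2) against 0.972 in the other stroma. Steap4, a metalloreductase, was at 28.3, 81.3, 119 and 372 CPM, and Gja4, the gap junction protein that couples mural and endothelial cells, at 61.6, 103, 102 and 215 CPM, although the call of Gja4 was lost when the median shift was taken out (1.84). Kcnj8 (0.864) and Higd1b (0.612) were not called. H2-M9, a nonclassical class I gene, was at 1.13, 0, 0.301 and 123 CPM in mural cells and at 0.0886 CPM in the other adult stromal cells.

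Genes of fetal growth were much lower in the adult, in 15 of 17 cases with a median ratio of 0.137, and in the other stroma in 15 of 19 with a median of 0.141. Dlk1, an imprinted inhibitor of differentiation, was at 1615, 2118, 2643 and 48.1 CPM in mural cells and at 1636, 2500, 2965 and 4.5 CPM in the others. It was thus alike in both until P0, and 10.7 times higher in mural cells in the adult. H19 was at 916, 1157, 1078 and 34.7 CPM, and Igf2, the fetal growth factor, at 51.4, 44.1, 52 and 1.28 CPM. Mural cells held less of the whole list than the other stroma before the adult, at 10083, 11710 and 11814 CPM against 17163, 19202 and 18206, and a like amount in the adult, at 2082 against 2242.

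Genes of antigen presentation and interferon response went the other way, with 9 of 17 higher in the adult, 1 lower and a median ratio of 3.09 (3.75 in the other stroma). H2-K1, a class I heavy chain, was at 3.39, 8.2, 18 and 370 CPM, 20.5 times its P0 level in mural cells and 20.8 times in the others. Ifitm3, an antiviral membrane protein, behaved differently, at 690, 1003, 1460 and 1455 CPM in mural cells against 71.6, 101, 181 and 570 in the others, so it was already high in mural cells at the fetal stages.

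Immediate early genes, which respond within minutes to stress, growth signals and tissue handling, were higher in the adult in 14 of 18 cases, with a median ratio of 2.76. In the other stroma 0 of 18 were higher and the median was 1.36. Fos was at 762, 1088, 1040 and 4061 CPM in mural cells and at 1601, 2636, 2473 and 3098 CPM in the others. Klf2, a transcription factor of flow and quiescence, was at 421, 247, 298 and 700 CPM in mural cells and called lower than in the others in the first 3 libraries only. Adult cells came from fewer bones and, per the study's methods, went through a lysis step that was left out for fetal bone marrow, and the part of handling in these values was not tested.

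**Figure D5:**
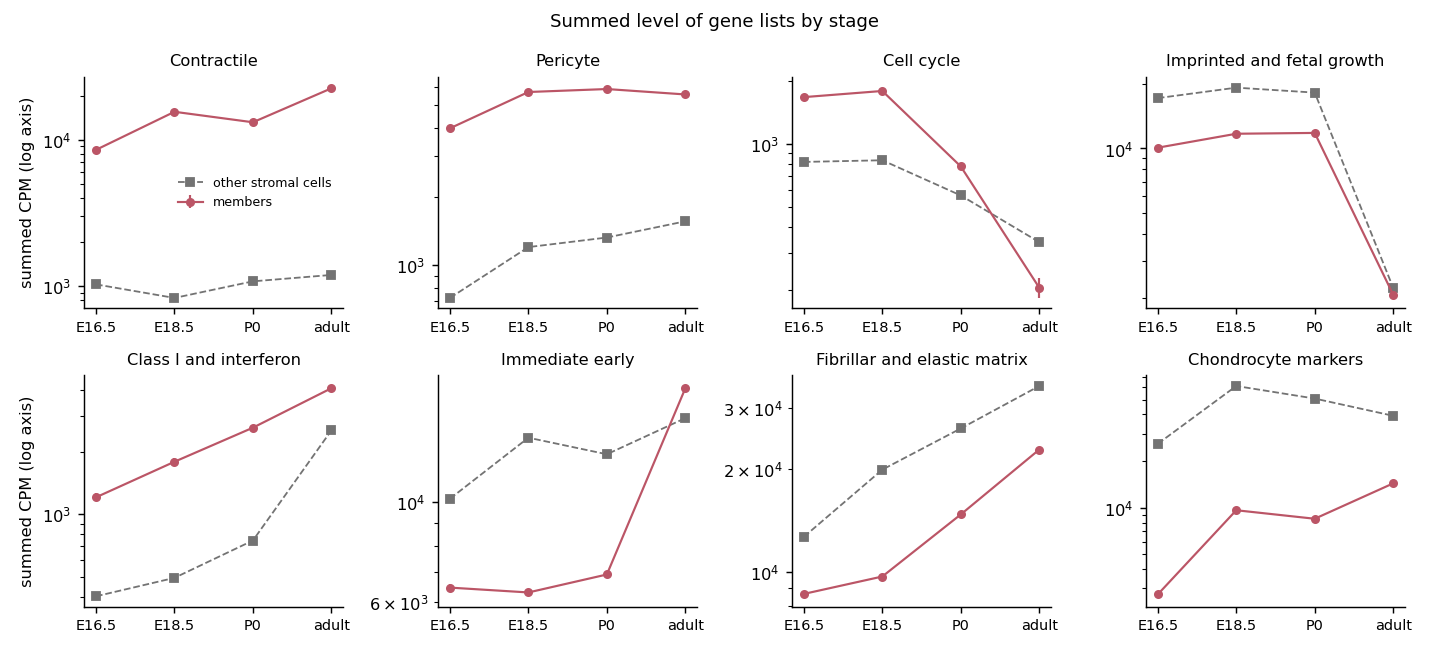
Summed CPM (vertical axes, log scale, differing between panels) of 8 gene lists in mural cells (red circles, with 95% Poisson intervals) and other stromal cells (grey squares) at the 4 stages. The contractile sum was highest in the adult, at 22439 CPM, the cell cycle sum lowest there, at 204 CPM, and the immediate early sum crossed that of the other stroma only in the adult.

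Antibody tags gave a readout that the rule did not use. Of 29 antibodies, 4 had a median count above 0 in a stromal library. CD73, the ectoenzyme of Nt5e, had a median of 10, 7, 11 and 10.5 counts in mural cells and 24, 14, 15 and 21 in the other stromal cells, and its share of cells above a centred log ratio of 1 was 3.33%, 4.17%, 5.09% and 9.21% against 18.2%, 15.1%, 12.7% and 13.9%. It was lower in mural cells in all 4 libraries, as was the RNA of Nt5e, at 1.70, 15.8, 10.8 and 50.1 CPM against 25.3, 59.2, 62.0 and 145. CD31, the endothelial adhesion protein of Pecam1, was slightly higher, with medians of 3, 2, 5 and 5 counts against 2, 1, 3 and 4, far under the 366.5, 169, 218 and 135 of endothelial cells. It was above the same level in 18.3%, 29.2%, 19.4% and 15.8% of mural cells against 4.37%, 4.20%, 4.53% and 15.1% of the others. The RNA of Pecam1 did not follow, at 1.13, 0.630, 5.41 and 53.3 CPM against 4.44, 9.12, 12.9 and 51.7, so it was lower in mural cells from E16.5 to P0. CD140a, the protein of Pdgfra, was above the same level in 12.5%, 8.33%, 8.80% and 11.8% of mural cells against 23.3%, 12.5%, 11.8% and 11.9% of the others, widest apart at E16.5 and nearly equal in the adult. Sca-1 (Ly6AE) was above it in 10%, 9.38%, 6.02% and 10.5% against 5.35%, 5.65%, 4.99% and 14.0%, while the RNA of Ly6a was at 8.48, 1.26, 16.5 and 273 CPM against 5.11, 20.3, 38.7 and 627. No antibody of the panel with counts in stroma marked mural cells as a group.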

How the data were processed

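Stromal and HP cells of C57B6/J mice were profiled by the authors with the 10x Chromium 3' v3.1 kit and TotalSeq-A antibody tags. The submitters' processing notes name Cell Ranger 3.1.0, R 4.0, Seurat 3.1.5 and mm10. The authors deposited UMI counts per gene and cell (20275 genes, 56201 cells that had passed their filters), antibody counts for 29 tags, and a table with the library, the annotation code and the mitochondrial share of each cell as a fraction. Of the deposited metadata, 11 columns were not used. No doublet caller was run, and cells with RNA of a second type were left out as an alternative.

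UMIs were summed over the cells of a group and divided by their total for CPM. Ratios carry exact conditional binomial, levels exact Poisson and shares Clopper-Pearson 95% intervals, for counting error only. With 1 library per stage no test was run and no p-value is given. A gene was tested at 50 or more UMIs over both groups. Thinning drew 3000 UMIs per cell without replacement and left out shallower cells. Antibody counts were transformed by the centred log ratio per antibody and library. Promoters came from RefSeq (GRCm38.p6). Python 3.11.15, numpy 2.4.6, scipy 1.17.1, pandas 2.3.3 and matplotlib 3.10.9 were used. The call rule was tested on simulated Poisson counts, which held no variation between cells. The simulation therefore cannot show how the rule performs where single cells carry much of a gene.

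The cells' rule and the gene lists were chosen with earlier results of these data known. Genes named are those of the lists, the 15 with the highest lowest-of-4 ratio to other stroma, the 10 each way with the largest ratio per pair of stages at 100 or more CPM, and the 10 each way between the Acta2-high and Acta2-low groups. Mitochondrial, ribosomal protein and Y-linked genes were left out of the additions. Genes singled out from the comparison of deposited codes were named after their values were seen. Alternatives were another UMI minimum of Rgs5, no requirement for Notch3, thinning, the main code alone, leaving out cells with endothelial or blood RNA, a filter of 20 UMIs, the mean of per-cell CPM, scaling by the median ratio, 2 equal groups by Acta2 in place of 3 and other antibody levels.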

Additional observations from a re-analysis of the deposited data

Results flagged for a closer look

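Several genes were called higher in mural cells than in the other stroma in 1 library and lower in another. The difference between the libraries was not tested in any of them, and with 1 library per stage it cannot be told apart from a difference between libraries. Some of these calls were lost under another setting, with examples below. The ratios given are of mural cells to other stromal cells.

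Ednrb, an endothelin receptor, went from 0.196 at E16.5 to 10.2 in the adult. The elastic fibre gene Fbln5 was 4.42 at E16.5, 0.39 at E18.5 and 3.04 at P0, where mural cells of the main code alone gave 0.879. Egln3, an oxygen-sensing hydroxylase, was 0.267 and 3.39 at its extremes, and its call at E16.5 was lost under 4 alternatives (1.75 to 1.99). The heat shock gene Hspa1a was between 0.486 and 2.24, and each of its calls was lost under some setting, with 0.532 at E16.5 without doublet-like cells, 0.521 at E18.5 as a mean of per-cell CPM and 1.98 in the adult without its top cell.

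Genes of division and of histones made up the largest group, each with its highest ratio before the adult stage and its lowest in the adult. These were Ccnb1 (2.55 and 0.206), Birc5 (2.35 and 0.477), Cenpf (2.21 and 0.119), Tpx2 (2.64 and 0.388), Ube2c (2.78 and 0.0416), Hells (2.52 and 0.169), Lmnb1 (3.09 and 0.29), Prc1 (3.13 and 0.243), Pclaf (3.59 and 0.403), Hist1h1b (3.04 and 0.266) and Hist1h2ap (2.23 and 0.38). As a mean of per-cell CPM, the adult ratio was 0.994 for Pclaf and 0.875 for Tpx2 and was not called. For Birc5 the adult ratio was 0.516 to 0.562 under 4 alternatives and not called. Cenpf was called higher at E16.5 only, and not without its top cell (1.79). Without its top cell Hist1h2ap was not called at E18.5 (1.80) or P0 (1.76).

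A single cell set 2 of the values. Msmp was at 22.2 at P0, where 1 cell held 5755 of its UMIs, or 99.3%, and 0.059 at its lowest. Kera was at 3.74 at E18.5, where 1 cell held all 66 UMIs, and 0 at its lowest.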

How the results depend on the processing

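Every value rests on 1 library per stage, and intervals cover counting error only. Depth limits genes with few UMIs in the 96 to 216 mural cells of a library, and adult mural cells were the shallowest. No paired analysis was possible because each stage had 1 stromal library. No replicate could be left out for the same reason.

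Thinning to 3000 UMIs gave shares of 0.332%, 0.790%, 1.04% and 1.60%. Without the need for Notch3, the share was 1.77% for E16.5, 1.86% for P0 and 3.54% for the adult library. With 5 UMIs of Rgs5 as the minimum, 100% of E16.5 mural cells were coded F4. The contractile genes summed to 8528, 15515, 13156 and 22439 CPM and stayed in that order of stages under each alternative. With that higher minimum they were 8183, 12689 (P0) and 21131 CPM (adult), without cells that held endothelial or blood RNA 8957, 13821 (P0) and 24466 CPM (adult), in the main code alone 15895 (E18.5), 14451 (P0) and 28317 CPM (adult), after thinning 9525, 13720 (P0) and 25099 CPM (adult), and as a mean of per-cell CPM 9441, 15774, 13664 and 24347 CPM. All of these alternatives kept a minimum of Rgs5. Over all cells coded P2, within the rule or outside it, P0 stood above E18.5 for Acta2 (5013 against 4437 CPM) and Myh11 (488 against 461 CPM). The place of E18.5 above P0 thus holds for cells chosen by Rgs5. The pericyte genes summed to 3972, 5722, 5896 and 5583 CPM. They were 4127, 6088 (P0) and 5729 CPM (adult) with the higher minimum, 5790 (P0) and 5422 CPM (adult) without cells that held such RNA, 6406 (P0) and 6226 CPM (adult) in the main code, 4117, 6097, 6521 and 6756 CPM after thinning, and 4193, 6181, 6568 and 7312 CPM as a mean of per-cell CPM. The adult value was thus the highest of the 4 in the last 2 settings only.

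The mean of per-cell CPM, with the fold alone as the threshold, gave 883 genes lower in mural cells in all 4 libraries, against 383. A filter of 20 UMIs gave 403 higher and 159 lower genes at E18.5 against E16.5, and 309 and 305 at P0 against E18.5. An alternative chosen after seeing the data left out the cell with the most UMIs of a gene in the higher group. It gave 109 higher and 46 lower genes at E18.5, and 112 and 90 at P0. Among the named genes that lost a call at E18.5, Lmod1 (1.87), Nrarp (1.94) and Il34 (1.91) fell just short of the threshold. Between the Acta2-high and Acta2-low groups, 50 genes were higher and 9 lower in all 4 libraries, against 18 and 0 after thinning. Some lost calls were still past the fold and missed the UMI minimum or the interval, such as Cygb at E16.5 and E18.5 (0.0526 and 0.0541) and Abcc9 at E16.5 (0.265). Others fell short of the fold, such as Jag1 at E18.5 (1.71). With 2 equal groups in place of 3, 2 were lower. Above a centred log ratio of 1.5, fewer mural than other cells were positive for Ly6AE in 2 libraries and for CD31 in 1, against 1 and 0.

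Of the named genes, Fbln5 at P0 was 0.879 times the other stroma in the main code alone. Without the top cell, Kera at E18.5 was at 0, Hbb-bs in the adult at 0.466, Msmp at P0 at 0.165, and Msmp in the adult at 9.98 times P0. Itga7 was 0.75 between the Acta2-high and Acta2-low groups at E16.5 after thinning. The cause was not tested in the remaining cases.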
